A study of Arabidopsis thaliana with 9 samples.

Results

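The clock pseudo-response regulators (PRRs) of Arabidopsis thaliana are encoded by PRR9 (AT2G46790), PRR7 (AT5G02810), PRR5 (AT5G24470), PRR3 (AT5G60100) and TOC1 (AT5G61380), and these 5 genes were taken by their locus codes from a table of 17680 genes in which all of them are listed. Wild-type seedlings of the Columbia-0 ecotype were profiled whole by 3′-end RNA-seq in 3 groups, with 3 libraries labelled for each. WLc seedlings grew in continuous white light (100 µE per m² and s) for 2 days after stratification. R1h seedlings were kept in "true dark", meaning that a far-red pulse had inactivated their phytochromes, for 47 h, and then given red light (10 µE per m² and s) for 1 h. D seedlings stayed in true dark for 2 days. All groups were stratified for 4 days, and the 3 h of white light that starts germination and the 5 min far-red pulse are described for the true-dark seedlings, with sources that differ on whether these came before or after stratification. Whether the libraries came from separate cultures is not stated, and the hour of harvest for them is not given in the sources used here, which matters for genes of the clock.

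Each value below is the authors' mean of a group in pseudo-counts, which are read counts adjusted to a common library size. No value per library was analysed, so there is no SD, no n and no p-value, and every interval given covers counting error only. A value of 10 or more in at least 1 group was met by 17299 genes, and a gene is called higher or lower where log2(value + 1) differed by at least 1, that is 2-fold. All 5 genes met this minimum, PRR9 through R1h alone. The columns summed to 12.5 M (WLc), 11.99 M (R1h) and 11.4 M (D) pseudo-counts. Because whole seedlings were extracted, fewer cells of a type and less RNA per cell cannot be told apart. Markers of the seedling's tissues were present in every group, from the mesophyll gene RCA (62002, 5563 and 3795 pseudo-counts in WLc, R1h and D) to the phloem gene SUC2 (632, 406 and 436). Not every marker looked for was listed: 3 of 4 were for the epidermis and 2 of 3 for the shoot apex.

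The circadian clock of plants is a loop of repressors. The MYB factors CCA1 and LHY act around dawn, and the PRR proteins follow them through the day in the order PRR9, PRR7, PRR5 and TOC1, each repressing CCA1 and LHY. PRR proteins carry a receiver-like domain that lacks the phosphate-accepting residue of true response regulators and a CCT motif through which they contact DNA. PRR9, PRR7 and PRR5 recruit TOPLESS corepressors. PRR3 is known to protect TOC1 protein from the F-box protein ZTL, and PRR5 to help TOC1 enter the nucleus.

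The sequences before the genes are shown first, because they hold the motifs through which light and clock factors are known to bind. Both strands of the 1000 bases before the annotated start were searched in the RefSeq annotation of TAIR10.1, whereas the authors counted on TAIR9 transcripts. The G-box CACGTG is a site of PIFs (phytochrome-interacting factors) and of HY5, and CATGTG is the PIF-binding element. The evening element AAAATATCT and the CCA1-binding site AAAAATCT are sites of CCA1, LHY and their REVEILLE (RVE) relatives, and LUX, a DNA-binding subunit of the evening complex, binds GATACG and GATTCG. Of 27443 protein-coding nuclear genes with a window of this length, 14.8% held the G-box, 37.7% CATGTG, 7.24% the evening element, 21.1% AAAAATCT, 16.9% GATACG and 28.2% GATTCG.

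PRR9 lies on chromosome 2 from 19232607 to 19235179 on the plus strand and had 2 G-box matches, 244 and 172 bases before its start. At least 2 such matches were found in 2.67% of the windows. Both G-boxes, and between or after them a PIF-binding element and a LUX site that lie on the opposite strand, are in capitals in this stretch, chr2:19232347-19232496, plus strand, shown because it holds all 4.
PRR9: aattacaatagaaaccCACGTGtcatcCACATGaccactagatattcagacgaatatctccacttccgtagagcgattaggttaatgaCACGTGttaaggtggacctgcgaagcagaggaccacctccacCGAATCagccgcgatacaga
PRR7 (chromosome 5, 637681 to 642030, minus strand) had 1 G-box, 201 bases before its start, in capitals in chr5:642199-642258, minus strand.
PRR7: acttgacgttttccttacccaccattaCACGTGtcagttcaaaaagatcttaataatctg
PRR5, PRR3 and TOC1 had no CACGTG in these windows. Outside the stretches shown, PRR9 had a CCA1-binding site 316 bases before its start. PRR7 had 1 match each to GATACG and GATTCG, 542 and 967 bases before its start.

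PRR5 (chromosome 5, 8356204 to 8358546, minus strand) had 3 evening elements, all on the opposite strand and so read as AGATATTTT, and 3 or more were found in 15 of the 27443 windows (0.0547%). This cut-off of 3, like that of 2 G-boxes for PRR9, equals the count of the gene itself. Both shares are therefore descriptions and no test. The annotated model of PRR5 begins at the start codon, so part of this window may be transcribed. The nearest match stood 187 bases before that start, beside a CCA1-binding site read as AGATTTTT. The 3 places are shown with the matches in capitals, all on the minus strand, at chr5:8359242-8359271, chr5:8358819-8358848 and chr5:8358720-8358749.
PRR5 at 716 bases: actagcattAGATATTTTttgggtttggta
PRR5 at 292 bases: caattctactAGATATTTTttcaaatccaa
PRR5 at 187 bases: tcgctAGATTTTTtctAGATATTTTctttt
TOC1 (chromosome 5, 24674963 to 24678550, plus strand) had 1 evening element, 151 bases before its start, also read as AGATATTTT, in capitals in chr5:24674786-24674845, plus strand.
TOC1: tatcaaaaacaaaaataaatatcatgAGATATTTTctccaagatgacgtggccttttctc
PRR3 (chromosome 5, 24197971 to 24201415, minus strand) had neither an evening element nor a CCA1-binding site, G-box or CATGTG. It had only 1 match each to GATACG and GATTCG, as PRR7 also had. TOC1 had 1 further match, to GATTCG, 328 bases before its start, and PRR5 had 1 CATGTG, 863 bases before its start. A match is a run of letters, and no binding was measured here.

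**Figure D1:**
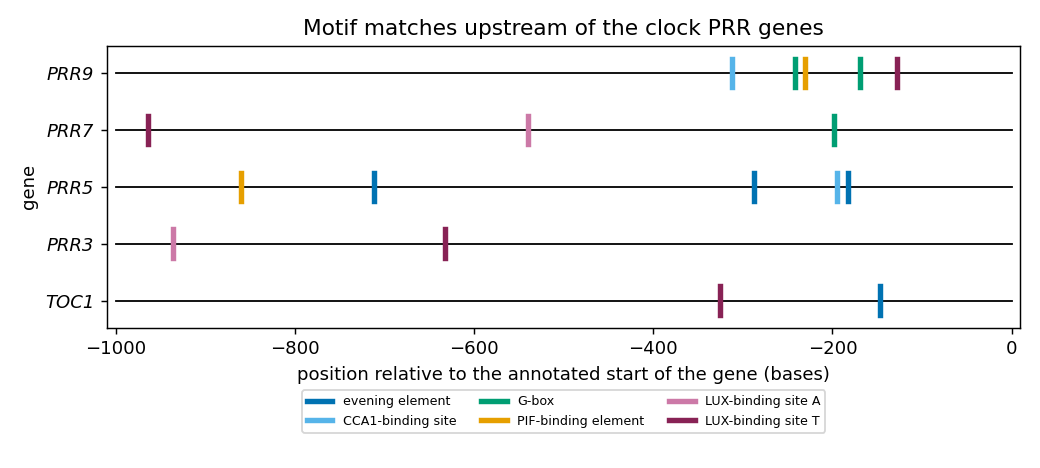
Motif matches on either strand in the 1000 bases before the annotated start (x axis, bases relative to the start) of each clock PRR gene (rows); the coloured bars are matches. The 2 G-boxes of PRR9 and the 1 of PRR7 lie within the last 244 bases, the 3 evening elements stand before PRR5 and 1 before TOC1.

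The RefSeq transcripts with the most bases encode 444 residues for PRR9, 583 for PRR7, 558 for PRR5, 409 for PRR3 and 618 for TOC1, with 6, 8, 6, 9 and 6 exons. PRR9, PRR7 and PRR3 have 5, 2 and 7 transcripts in this annotation. Their other transcripts may encode longer proteins, so these are not the sizes of the main proteins. Counting used only the last 500 bases of each transcript, and reads had to map uniquely. In PRR7, PRR5, PRR3 and TOC1 all 451 windows of 50 bases in that region were unique on the coding strand. In PRR9 only 167 of 451 were (37%), the rest being shared with AT2G46670, a short gene on the same chromosome (19164357 to 19165233) that encodes 183 residues. The level of PRR9 is therefore a count over fewer positions, the same ones in every group, and this share is approximate because the transcript models differ from those counted on. The unique windows of PRR9 begin 500 to 380 and 95 to 50 bases from its 3′ end. Levels of different genes are compared below per 100 unique positions. Reads of 3′-end RNA-seq need not lie evenly over these positions, so the order and shares of the genes are approximate.

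PRR7 had the highest level in each group and PRR9 the lowest. PRR7, which acts with PRR9 in the morning, had 100.5 pseudo-counts per 100 unique positions in WLc, 66.3 in R1h and 57.4 in D. TOC1, the evening member, was next in each group with 29.7, 40.2 and 38.3 in WLc, R1h and D. The next places differed between the groups. PRR5 stood above PRR3 in WLc (14.8 against 4.15) and in R1h (31.9 against 19.6) but below it in D, where PRR5 had 10.3 and PRR3 17.8. The RefSeq model of PRR5 has 1677 bases, all of them coding, and so no untranslated 3′ end. If the model counted on was the same, reads further downstream were missed. The level, place and share of PRR5 may then be too low. PRR9 had 1.55, 9.94 and 0.20 per 100 unique positions in WLc, R1h and D. The counting intervals of neighbours in this order did not overlap in any group. These intervals do not cover an uneven placement of reads, and the spread between libraries is unknown. Of the summed level of the 5 genes on this scale, PRR7 held 66.7% in WLc, 39.5% in R1h and 46.3% in D, and PRR5 9.81%, 19% and 8.33%.

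**Figure D2:**
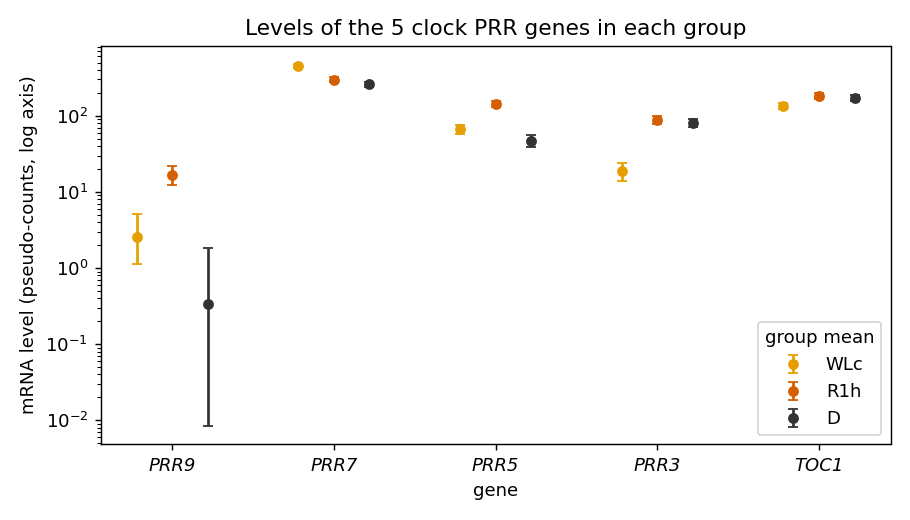
Level of each clock PRR gene (y axis, pseudo-counts on a log scale) in WLc, R1h and D; points are the authors' group means and bars 95% counting intervals. PRR9, PRR5, PRR3 and TOC1 have their highest point in R1h and PRR7 in WLc. For PRR3 and TOC1 the bars of R1h and D overlap. PRR3 and TOC1 have their lowest point in WLc, and the 3 points of TOC1 lie between 134 and 181.

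After 1 h of red light PRR9 and PRR5 were higher than in D and the other clock PRR genes were not called. These 2 of 5 compare with 3.89% of all tested genes called higher in R1h, and none was called lower (2.46% of all). PRR9 met the minimum through R1h alone, so its count among the higher genes adds no support. Without PRR9 the number higher was 1. PRR9 is known to respond to light through phytochrome, and stood at 16.6 pseudo-counts in R1h, about 50 reads, against 0.33 in D, which is a single read in 1 library. The plain ratio of 49.9 had a counting interval of 8.54 to 2006, all of it beyond 2-fold. On the log2(value + 1) scale its difference was 3.72, a size that depends on the pseudocount over so low a level in D (4.36 with a pseudocount of 0.5 and 2.02 with 5).

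PRR5, the afternoon member of the family, had 143.7 pseudo-counts in R1h and 46.6 in D. Its ratio of 3.08 had a counting interval from 2.54 to 3.74, so that PRR5 too lay beyond 2-fold with its whole interval, as did 2.47% of all genes on the higher side and 1.35% on the lower. The log2 difference of 1.60 was at percentile 98.3. Read depth was not the limit here, with about 435 reads in R1h and 141 in D.

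PRR7, PRR3 and TOC1 stood near their dark levels after the hour of red light. PRR7 had 299 pseudo-counts in R1h against 259 in D, a ratio of 1.15 (interval 1.05 to 1.27). PRR3 had 88.5 in R1h and 80.2 in D (ratio 1.10, interval 0.92 to 1.32), and TOC1 had 181 and 173 (ratio 1.05, interval 0.93 to 1.19). A change of 2-fold is outside each of these counting intervals. The interval of PRR5 did not overlap that of PRR7, PRR3 or TOC1.

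PRR3, which is known to be expressed in vascular tissue, was lower in WLc, at 18.7 pseudo-counts against 80.2 in D. Its ratio was 0.234 (interval 0.171 to 0.311), that is 4.28 times lower than in D, at percentile 3.27 of the log2 differences (-2.04). Of all tested genes 10.7% were called lower and 13.9% higher in WLc. The whole interval of PRR3 lay beyond 2-fold, as for 7.94% of all genes on the lower side, and no clock PRR gene met this on the higher side (9.69% of all). Lower in WLc without a call in R1h, as PRR3 was, were 9.16% of them.

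Of 4 markers of vascular tissue, 3 passed the minimum and 2 were higher in WLc, namely APL (333 pseudo-counts in WLc, 137 in D) and ATHB8 (26.2 and 10.6). SUC2 (632 and 436) was not called, and MYB46 (8.35 and 8.56) was under the minimum; both are given to complete the list. The 4 markers summed to 999.6 pseudo-counts in WLc, 579.7 in R1h and 592.0 in D. All 4 mesophyll markers were also higher in WLc, summing to 347044, 54447 and 37737 pseudo-counts in WLc, R1h and D, while 1 of 4 tested root markers was lower in WLc (CASP1, 952 pseudo-counts against 3699 in D) and 1 of 3 epidermal ones (PDF1, 4016 against 15338). The other root and epidermal markers were not called. The part of these differences in the level of PRR3, or of any clock PRR gene in WLc, was not tested.

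PRR7 was the member with the most reads, and its WLc level lay above D but short of 2-fold. It had 453 pseudo-counts in WLc and 259 in D, a ratio of 1.75 (interval 1.60 to 1.91). Its log2 difference of 0.80 became 1.15 and passed 2-fold when the columns were scaled to 8 reference genes, whose median log2 difference was -0.29 as deposited. That scaling moved the median of all genes by 0.34, and relative to the median PRR7 stood at 0.78.

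PRR5 and TOC1 did not reach 2-fold between WLc and D. PRR5 had 66.6 pseudo-counts in WLc against 46.6 in D (ratio 1.43, interval 1.14 to 1.78). TOC1 had 134 in WLc and 173 in D (ratio 0.775, interval 0.680 to 0.884), and its log2 difference of -0.37 came to -0.02 with reference-gene scaling. PRR9 had 2.58 pseudo-counts in WLc, about 8 reads, against the single read in D. The ratio of 7.77 had an interval from 1.06 to 350, and the call (log2 difference 1.43) was lost with quantile normalization (0.97), with a pseudocount of 5 (0.51) and when the whole interval had to lie beyond 2-fold.

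WLc against R1h sets seedlings grown in continuous white light beside dark-grown seedlings given 1 h of red light. The groups thus differ in the colour, irradiance and duration of light, and in the dark growth and far-red pulse described for R1h. These differences cannot be told apart here. PRR9, PRR5 and PRR3 were lower in WLc, 3 of 5 where 10% of all tested genes were, and none was higher (12% of all). PRR9 was tested only because of its R1h level, and without it the number lower was 2. PRR9 had 2.58 pseudo-counts in WLc and 16.6 in R1h, a ratio of 0.156 (interval 0.0648 to 0.337). PRR3 had 18.7 and 88.5 in these groups, and its ratio of 0.212 ran from 0.155 to 0.281. Both lay beyond 2-fold with their whole intervals, as did 7.49% of all genes on the lower side and 8.13% on the higher.

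PRR5 was nearer to the limit. With 66.6 pseudo-counts in WLc and 143.7 in R1h its ratio was 0.464, interval 0.391 to 0.549, and its log2 difference of -1.10 became -0.64 with reference-gene scaling, under which the median of all genes moved by 0.46. PRR7 stood at a ratio of 1.52 (interval 1.39 to 1.65) and TOC1 at 0.740 (0.649 to 0.841). PRR9 and PRR5 were thus both higher in R1h than in D and lower in WLc than in R1h, a combination met by 198 of 17299 genes (1.14%). For PRR9 the minimum, met through R1h alone, favours this combination in advance. TOC1 and PRR7 were called in none of the 3 comparisons, as were 69.8% of all genes. The comparisons share their groups and are not independent of each other.

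**Figure D3:**
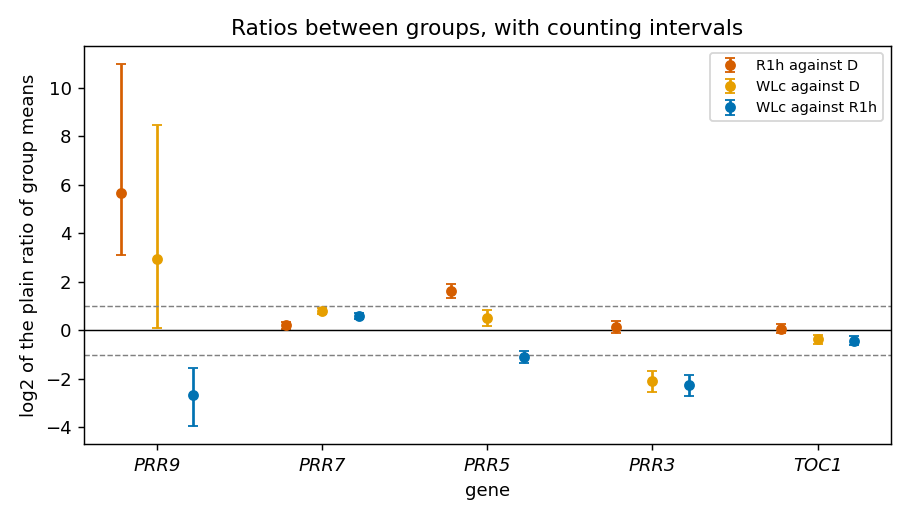
Log2 of the plain ratio of group means (y axis) for each clock PRR gene in the 3 comparisons; bars are 95% counting intervals and dashed lines mark 2-fold. PRR9 and PRR5 lie above the upper line in R1h against D and PRR3 below the lower one in both WLc comparisons, while the wide bars of PRR9 rest on 1 read in D.

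The other clock genes set the surroundings of the PRR genes. Of 33 others in the table, 11 were higher and none lower in R1h against D, where 3.89% and 2.46% of all tested genes were. In WLc against D 11 were higher and 4 lower, beside 13.9% and 10.7% of all tested genes. The share lower in WLc was thus near that of all genes. The same shares of all genes apply to the counts of each list below. The median log2 differences were 0.26 and 0.41, beside 0.00 and 0.02 over all genes and 0.21 and 0.51 over the 5 PRR genes. No chance test was made on these lists, which were drawn up with earlier results of these data known.

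The morning MYB genes, with the PRR targets CCA1 and LHY among them, were higher in both light groups for 6 of 9 members each. CCA1 had 2200 pseudo-counts in WLc, 1593 in R1h and 199 in D, and LHY had 1838, 719 and 166. RVE1, a relative that links the clock to auxin, had 1070, 695 and 124, and RVE8, an activator of evening genes, 503, 210 and 52.3. Like PRR7 and unlike the other clock PRR genes, these 4 genes had their highest level in WLc.

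The LNK genes encode coactivators that work with RVE8, and PRR5 and TOC1 are among their known targets. Of 4, 3 were higher in R1h and 4 in WLc. LNK1 had 664 pseudo-counts in WLc, 1137 in R1h and 231 in D. LNK3 had 653, 644 and 161, and LNK4 had 2504, 1796 and 724. LNK2, the one not called in R1h, had 1190, 156 and 80.9.

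The evening complex (ELF3, ELF4 and LUX, with the LUX relative BOA) represses genes at night, PRR9 and PRR7 among its known targets. ELF4 was the member of this list called higher in both light groups, at 171 pseudo-counts in WLc, 218 in R1h and 35.2 in D. BOA (141 in WLc, 522 in D) was lower in WLc against D, and LUX (123 and 337) was too, given here as the remaining gene called in that comparison. So was GI, which encodes a large protein that stabilises ZTL. GI had 122 pseudo-counts in WLc, 1144 in R1h and 353 in D. Like PRR9 and PRR5, GI was called higher in R1h against D, and unlike them it lay below D in WLc. ELF3 was not called against D, and like BOA, LUX and GI it was lower in WLc against R1h (ratio 0.385, interval 0.299 to 0.487). It had 31.5 pseudo-counts in WLc, 81.7 in R1h and 57.6 in D. Of the ZTL family, whose members target TOC1 and PRR5 proteins, none of 3 was called in either comparison with D (ZTL at 564, 381 and 336).

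**Figure D4:**
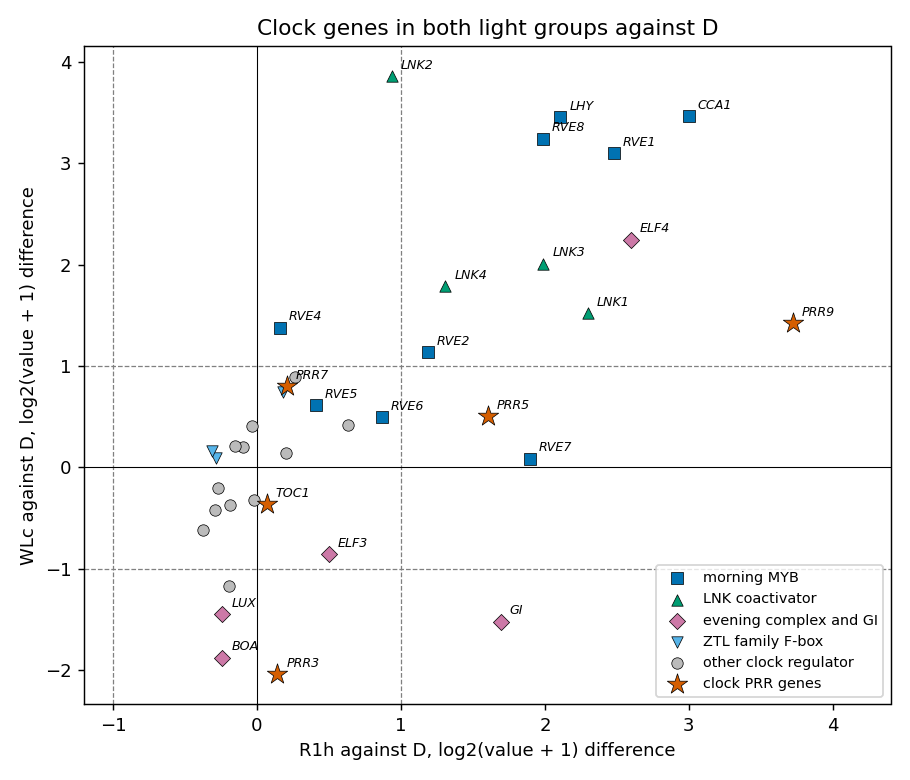
Log2(value + 1) difference of R1h against D (x axis) and of WLc against D (y axis) for the clock PRR genes (stars) and 33 other clock genes by list; dashed lines mark 2-fold. PRR9 and PRR5 lie right of the line at 1, PRR3 lies near LUX and BOA at the bottom, and CCA1, LHY, RVE1 and RVE8 lie at the top right.

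The partners and targets of the PRR proteins were looked at in the same way. Of 7 genes for TOPLESS corepressors and the histone deacetylases HDA19 and HDA6, none was called in R1h and TPR4 alone was higher in WLc (282 pseudo-counts, 124 in D). Of 11 genes known to be repressed by PRR proteins, 9 were tested, 5 were higher in R1h and 7 in WLc, with CCA1 and LHY counted here again. CDF1, a repressor of flowering, had 66.4 pseudo-counts in WLc, 5.57 in R1h and a single read in D, so that its ratio of WLc to D was 200 with an interval from 35.5 to 7939. CDF3 had 1196, 941 and 207. The only target called lower in WLc against D was CDF5 (285 in WLc, 859 in D), named here for that reason after its value was seen.

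Likeness to each member was measured as the distance between the pairs of log2 differences (R1h against D and WLc against D), over 3 group means and 13331 genes that reached 50 pseudo-counts. The place of PRR9 rests on the pseudocount over 1 read in D and 8 in WLc, which moves it by more than the distances given here, and its nearest genes were looked for with a pseudocount of 1 only. They were PKS1 (distance 0.29), which encodes a phytochrome kinase substrate, with 183 pseudo-counts in WLc, 1144 in R1h and 70.4 in D, and AT1G48100 (0.38). PRR5 had 14 genes within a distance of 0.25 log2 units, nearest ECT8 (0.05; 434, 965 and 306 pseudo-counts in WLc, R1h and D) and PK1 (AT3G08730, 0.05). PRR3 had 49, nearest BEE1 (0.03; 16.8, 79.2 and 71.0), a brassinosteroid-responsive bHLH gene, and the galactosidase gene BGAL5 (0.05). PRR7 and TOC1, with small differences, had 591 and 1595, nearest AT3G61320 and EMB2761 for PRR7 and AT1G57720 and KOB1 for TOC1.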

How the data were processed

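Whole seedlings were measured by 3′-end RNA-seq, with groups read from sample titles. Reads of 50 bases had been placed by the authors with Bowtie, no mismatch allowed, on the TAIR9 representative transcripts, and they counted unique reads on the coding strand of the last 500 bases. Their deposited signal is the edgeR pseudo-count, 1 mean column per group, so edgeR, limma and any test over libraries could not be run. Tool versions: not given in the sources used here. In each column the lowest values above 0 lay on 3 levels, which gave the value of 1 read (0.327 in WLc, 0.330 in R1h, 0.331 in D) and from it approximate reads. Ratios have exact conditional binomial (Clopper-Pearson) and levels exact Poisson 95% intervals, both for counting error only. Values below 1e-06 were read as 0. Differences are of log2(value + 1), which understates low genes. Calls were computed over all genes and tried on simulated counts that had counting error and no spread between libraries. That trial cannot show how often calls are wrong when libraries differ, or at levels as low as those of PRR9. Alternatives were 3 other scalings, pseudocounts of 0.5 and 5, no filter and a stricter call. Motifs, models and uniqueness come from RefSeq TAIR10.1, which held 17628 of 17680 locus codes. Named genes are the 5 members, up to 3 called genes per list and comparison by size (where none was called, the 1 with the highest mean) and the 2 genes nearest to each member; AT2G46670, LUX and MYB46 are outside this rule and were chosen after the data were seen. Members and lists were chosen with earlier results of these data known. Python 3.11.15, scipy 1.17.1 and pandas 2.3.3 were used.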

Additional observations from a re-analysis of the deposited data

How the results depend on the processing

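Of 75 recomputed log2 differences of the 5 genes, 67 differed from the value as reported by no more than the matching arm of its counting interval, 8 by more, and none of a called gene changed sign. With a pseudocount of 5, PRR9 was among the 67 at 2.02 (R1h against D) and -1.51 (WLc against R1h), although both lie outside the intervals of its plain ratios. Scaling to reference genes moved the median log2 difference of all genes by -0.11 in R1h against D, 0.34 in WLc against D and 0.46 in WLc against R1h, and scaling to the column total by -0.13 in WLc against D. PRR9 was called higher in R1h and PRR5 too under each scaling and pseudocount, with ranges of 2.02 to 4.36 and 1.49 to 1.61, and PRR3 stayed lower in WLc against D (-2.25 to -1.71). TOC1, called in no comparison, had values from -0.05 to 0.07 in R1h against D and from -0.49 to 0.03 in WLc against R1h. In R1h against D the number of members higher was 2, and 1 without PRR9, a setting chosen after seeing the data. In WLc against D the number higher was 1, and it was 2 with reference-gene scaling (PRR9 and PRR7), and 0 with quantile normalization, with a pseudocount of 5, with the whole interval beyond 2-fold and without PRR9. In WLc against R1h the number higher was 0, and 1 with reference-gene scaling (PRR7), while the number lower was 3, and 2 with that scaling, with the whole interval beyond 2-fold and without PRR9. With the whole interval beyond 2-fold, 428 genes instead of 673 were higher and 234 instead of 426 lower in R1h against D. The order of the 5 genes by level was the same per unique position as for the deposited values in each group. No paired analysis was possible because the columns carry group means and no replicate numbers, and for the same reason no library could be left out. The low reads of PRR9 in WLc and D are the main limit of depth.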

Other observations

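Of 4 further pseudo-response regulator genes that are not counted among the clock genes, 2 were tested. APRR2, a gene of this family tied to pigment in fruit of other species, had 473 pseudo-counts in WLc, 551 in R1h and 300.0 in D, short of 2-fold in both comparisons with D (log2 differences 0.65 and 0.87). APRR8 had 62.9, 19.1 and 25.1, and was higher in WLc against D (ratio 2.50, counting interval 1.91 to 3.31). Like PRR9 and PRR5, APRR2 had its highest level in R1h. PRR3 and TOC1 were also highest in R1h, but the counting intervals of their ratios to D (0.92 to 1.32 and 0.93 to 1.19) included no change. APRR4 and APRR6 were not among the 17680 genes listed and so have no value here.

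JMJ30 (JMJD5), a histone demethylase gene that is known to cycle with an evening peak like TOC1, was the only one of 12 further clock regulators called in a comparison with D. It had 191 pseudo-counts in WLc, 378 in R1h and 432 in D (WLc against D, ratio 0.443, interval 0.401 to 0.488). TOC1 itself stood at a ratio of 0.775 in the same comparison.

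RVE7 (EPR1), a morning MYB gene first described for its response to phytochrome, was the only gene of its list lower in WLc against R1h, as PRR5 was, with 195 pseudo-counts in WLc, 685 in R1h and 183 in D. Of its windows in the counted region 49.2% were unique, with the remainder also present in AT3G10113.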
